A study of Mus musculus with 30 samples.

Results

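Established mouse induced pluripotent stem cells (iPSCs) made with 4 factors were compared with the day 7 cells of the same reprogramming experiment, the last bulk intermediate before a pluripotent line. Group and stage came from the sample labels alone, which gave 2 RNA-seq libraries of iPSCs and 2 of day 7 cells, 4 of the 30 libraries of the series. The series followed mouse embryonic fibroblasts (MEFs) towards pluripotency by 2 routes, virally delivered transcription factors and a small-molecule medium. The 4-factor table holds 10 libraries, from day 0 MEFs over days 2, 4 and 7 to iPSCs, with 2 libraries at each stage.

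The iPSC libraries (genotype 129XOG2) came from cells kept on feeder cells in a defined mouse embryonic stem cell medium. It contained 1000 units/ml of the cytokine LIF, 3 µM of the GSK3 inhibitor CHIR99021 and 0.2 µM of the MEK inhibitor PD0325901. The day 7 libraries (genotype 129XOG2) came from OG2 MEFs of passage 1 to 3 that had been infected with lentiviruses for Oct4, Sox2, Klf4 and c-Myc. OG2 is a reporter stock in which regulatory sequence of Oct4 drives a green fluorescent protein. These cells were in medium with 10% fetal bovine serum, 10% knockout serum replacement and 2 µg/ml doxycycline. The labels name no sort of the day 7 cells, so the libraries are read as bulk cultures in which reprogramming and non-reprogramming cells are mixed. They also do not say whether the 2 iPSC libraries are 1 line or clone, or separate cultures, so p-values reflect the spread among the libraries alone, which may be technical. Stage, medium, feeder cells, doxycycline and the selection of a line changed together between the groups and cannot be told apart. Day 0 MEFs, also compared below, were in medium with 10% fetal bovine serum, with no knockout serum replacement or doxycycline named. CF1 is the mouse stock of the small-molecule route. Its day 12 cells came from MEFs of passage 1 to 3. CF1 iPSCs were kept with LIF, CHIR99021 and PD0325901 at the same concentrations as the 4-factor iPSCs.

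Naive pluripotent cells are held by a network of transcription factors around Oct4, Sox2, Nanog and Esrrb, which activate one another and keep the genome open to all embryonic lineages. Blocking MEK and GSK3 while LIF activates STAT3 is the standard condition for that state in culture. In factor-driven reprogramming, fibroblasts first lose their contractile and mesenchymal programme and gain epithelial features, and only a minority of cells later switch on the pluripotency network from their own genes, after which the delivered factors are silenced and no longer needed.

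The depth of the libraries is unknown, since the table holds normalised values and no counts. Its unit is FPKM (fragments per kilobase of transcript, scaled to the library total), which summed to 411401 and 434627 in the iPSC libraries, against 414505 and 418507 at day 7. Replicates correlated at r = 0.9826 for iPSCs and 0.9923 for day 7 on log2(FPKM + 1). iPSC and day 7 libraries correlated at r = 0.662 to 0.669 across genes, whereas day 7 and day 0 libraries correlated at 0.931 to 0.939. The iPSC libraries correlated more with each earlier stage than with day 7. These values were 0.684 to 0.7 for day 0, 0.722 to 0.726 for day 2 and 0.725 to 0.739 for day 4. The 13 protein-coding mitochondrial genes held 9.03% and 5.20% of the summed FPKM in the iPSC libraries, against 13.3% and 11.3% at day 7. The iPSC libraries were further apart in this share than the day 7 libraries, and for genes with values below, a call lost without 1 library is named beside the gene.

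A gene was called changed when limma's Benjamini-Hochberg adjusted p over all 14761 tested genes was under 0.05 and the difference was at least 1 on the log2(FPKM + 1) scale. By this rule 3529 genes (23.9%) rose and 3221 genes (21.8%) fell in iPSCs relative to day 7, together 45.7% of the genes tested. These shares are the background for the list counts below. Between day 7 and day 0 the same rule called 916 genes higher (6.21%) and 577 lower (3.91%). The 2 comparisons share the day 7 libraries. Of the rises, 324 were of at least 3 on the log2 scale, and of the falls, 622. The libraries of the groups did not overlap for 12606 genes, 85.4% of those tested, so that lack of overlap by itself sets few genes apart here. The median difference over all tested genes was 0.09. In bulk samples, fewer cells of a type and less RNA per cell cannot be told apart, which holds for every difference below.

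The filter on low values shapes some of these counts. Of the tested genes, 1119 reached the minimum (1 FPKM in at least 2 of the 10 libraries) only through the iPSC libraries, and 870 of them were called higher. The filter thus selected these genes for higher values in iPSCs. They are named below as above the minimum in iPSCs only, although 1 library outside iPSCs can reach it. Leaving out either iPSC library takes most of them out of the test. Without iPSC replicate 1 or 2, 13827 and 13825 genes stayed in it, against 13642 that passed outside iPSCs. In the other direction, 325 genes reached it only through day 7, of which 160 were called lower.

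**Figure D1:**
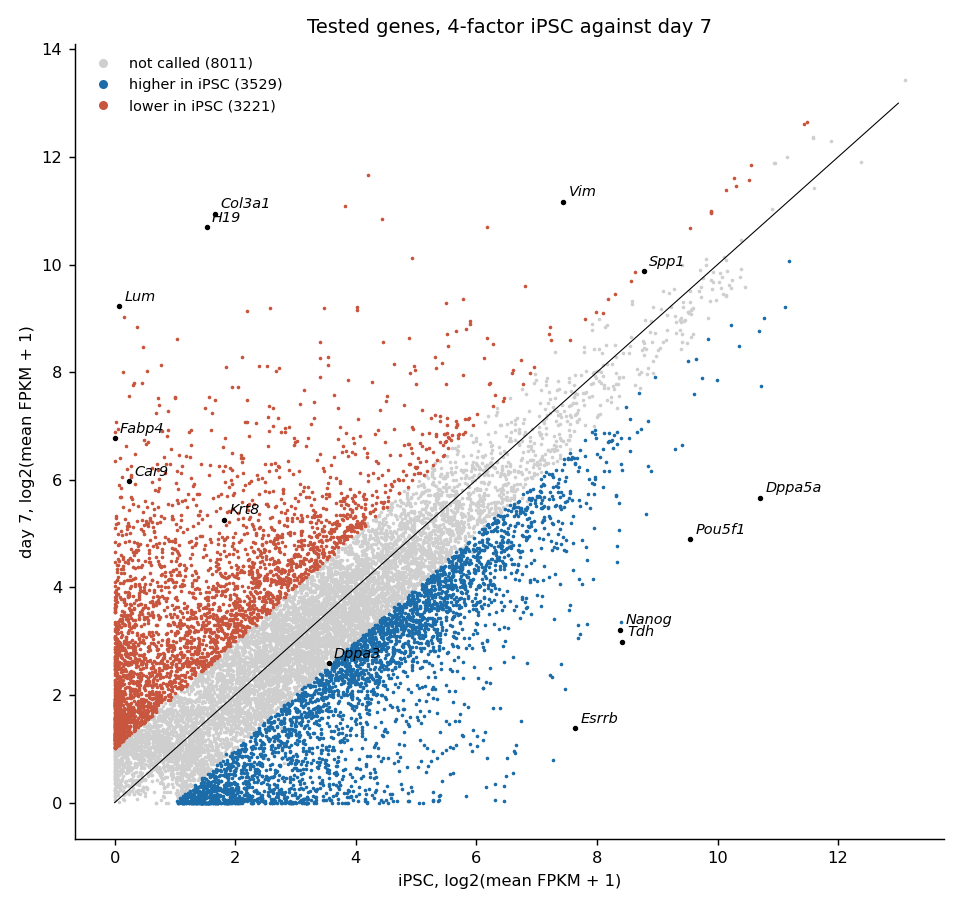
Each point is a tested gene, with the mean of the 2 iPSC libraries on the x axis and the mean of the 2 day 7 libraries on the y axis, both as log2(FPKM + 1). Blue points are the 3529 genes called higher in iPSCs and red points the 3221 called lower. Named examples are in black: Col3a1 and Lum lie at the top left, and Nanog, Tdh and Esrrb at the lower right.

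Of the 4 delivered factors, 3 ended far apart between the groups and Myc did not. Pou5f1, which encodes Oct4, stood at 603 and 895 FPKM in the iPSC libraries, against 27.7 and 29.6 FPKM at day 7. Both iPSC libraries were above both day 7 libraries, a difference of 4.63 ± 0.20 on the log2 scale (SE, limma adjusted p = 9.74e-08). Its gene (ENSMUSG00000024406) lies at chr17:35506018-35510772 on the plus strand of mm10. Sox2, the partner of Oct4 on shared DNA elements, had 142 and 194 FPKM in iPSCs, against 4.85 and 5.14 FPKM at day 7 (4.80). Klf4, a zinc finger factor of the naive network, reached 77.7 and 98.5 FPKM in iPSCs, against 6.2 and 7.78 FPKM at day 7 (3.48). Myc, the growth regulator among the factors, had 9.73 and 12 FPKM in iPSCs, against 11 and 10.4 FPKM at day 7. The Myc groups overlapped, and the difference was 0.02 ± 0.22 (limma adjusted p = 0.943). Values per gene do not separate viral from endogenous transcripts, so the day 7 levels of these genes may hold either.

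Other transcription factors of naive cells had no viral copy, and all 20 in the list rose, with a median difference of 4.11. Of these, 14 passed the filter outside iPSCs and 6 were above the minimum in iPSCs only. Nanog, the homeobox factor that stabilises self-renewal, had 348 and 320 FPKM in iPSCs, against 8.18 and 8.34 FPKM at day 7 (5.17 ± 0.13, limma adjusted p = 7.45e-09). Esrrb, an orphan nuclear receptor that can stand in for Nanog, had 221 and 176 FPKM in iPSCs, against 1.30 and 1.93 FPKM at day 7 (6.26). For both genes every iPSC library lay above every day 7 library by a wide margin relative to the spread within groups. Zfp42, the stem cell marker also called Rex1, had 159 and 194 FPKM in iPSCs, against 3.74 and 2.93 FPKM at day 7 (5.36). Nr0b1, an orphan nuclear receptor that binds Oct4, had 55.9 and 64.1 FPKM in iPSCs, against 1.12 and 0.754 FPKM at day 7 (4.98).

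Smaller rises were also seen in the list. Nacc1, a BTB-domain partner of Nanog and Oct4, had 68.9 and 75.6 FPKM in iPSCs, against 14.5 and 16.5 FPKM at day 7 (2.15), the smallest rise of the list. Tead4, a partner of the Hippo pathway factor YAP, had 13.2 and 12.0 FPKM in iPSCs, against 1.46 FPKM in each day 7 library (2.47). Klf2, a naive Klf factor that fibroblasts also transcribe, had 88.4 and 147 FPKM in iPSCs, against 14.7 and 17.4 FPKM at day 7 (2.75). Groups were apart for these genes too. The members above the minimum in iPSCs only were Tfcp2l1, Prdm14, Nr5a2, Tcl1, Rex2 and Gbx2. Tfcp2l1, a LIF and STAT3 target that sustains naive cells, had 82.8 and 60.0 FPKM in iPSCs, against 0.692 and 0.865 FPKM at day 7. Prdm14, which restrains FGF signalling and DNA methylation, had 16.1 and 14.5 FPKM in iPSCs, against 0.676 and 0.434 FPKM at day 7.

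Downstream genes of the naive state followed, with 25 of 28 called higher, 1 lower and 2 not called (median 4.19). Of the 28, 10 were above the minimum in iPSCs only, and of the other 18, 15 rose. Dppa5a, an RNA-binding protein of early embryos with several processed copies in the genome that make its value uncertain, had 1431 and 1910 FPKM in iPSCs, against 50 and 49.8 FPKM at day 7 (5.02). Tdh, threonine dehydrogenase, which feeds one-carbon metabolism in mouse embryonic stem cells, had 322 and 359 FPKM in iPSCs, against 7.35 and 6.53 FPKM at day 7 (5.43). Utf1, a chromatin factor of pluripotent cells, had 163 and 246 FPKM in iPSCs, against 7.24 and 7.34 FPKM at day 7 (4.60). In each of these the day 7 libraries lay close together and far below both iPSC libraries.

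A few effectors broke that pattern. Dppa3, a maternal factor also called Stella that protects against DNA methylation changes, had 9.85 and 11.5 FPKM in iPSCs, against 5.39 and 4.71 FPKM at day 7. The groups did not overlap, but the difference of 0.95 ± 0.12 was under the fold threshold, and the gene passed it with a pseudocount of 0.1 (1.06) as well as without iPSC replicate 1 (1.05) or day 7 replicate 1 (1.03). Libraries of day 4 and earlier listed Dppa3 at 0. Spp1, osteopontin, a secreted glycoprotein of many cell types, was the 1 member to fall, with 468 and 406 FPKM in iPSCs, against 940 and 936 FPKM at day 7 (-1.10 ± 0.16, limma adjusted p = 0.000197). Lefty1, a secreted Nodal antagonist, had 6.87 and 12.8 FPKM in iPSCs, against 3.92 and 3.21 FPKM at day 7 (1.19), and was not called without iPSC replicate 2 (0.79). Sfn, stratifin, overlapped between groups, with 11.6 and 20.7 FPKM in iPSCs, against 9.65 and 11.9 FPKM at day 7.

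Of 10 tested genes of the primed or formative state, 8 rose, 1 fell and 1 was not called, 5 of them above the minimum in iPSCs only. Fgf5, the textbook marker of primed epiblast, stayed under the minimum, with 0.0544 and 0 FPKM in iPSCs, against 0.147 and 0.104 FPKM at day 7. Otx2, the homeobox factor of the formative transition, had 1.34 and 0.821 FPKM in iPSCs, against 0.779 and 0.806 FPKM at day 7, and was not tested. The largest rise was that of Nodal, a TGF-beta family ligand that naive cells also express, with 16.6 and 27.0 FPKM in iPSCs, against 0.194 and 0.298 FPKM at day 7, and it was above the minimum in iPSCs only. Of the 5 genes that passed the filter otherwise, 3 rose and 1 fell. Sox4, a SOX factor common in mesenchyme, fell, with 8.08 and 7.08 FPKM in iPSCs, against 25.4 and 25.3 FPKM at day 7 (-1.62).

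**Figure D2:**
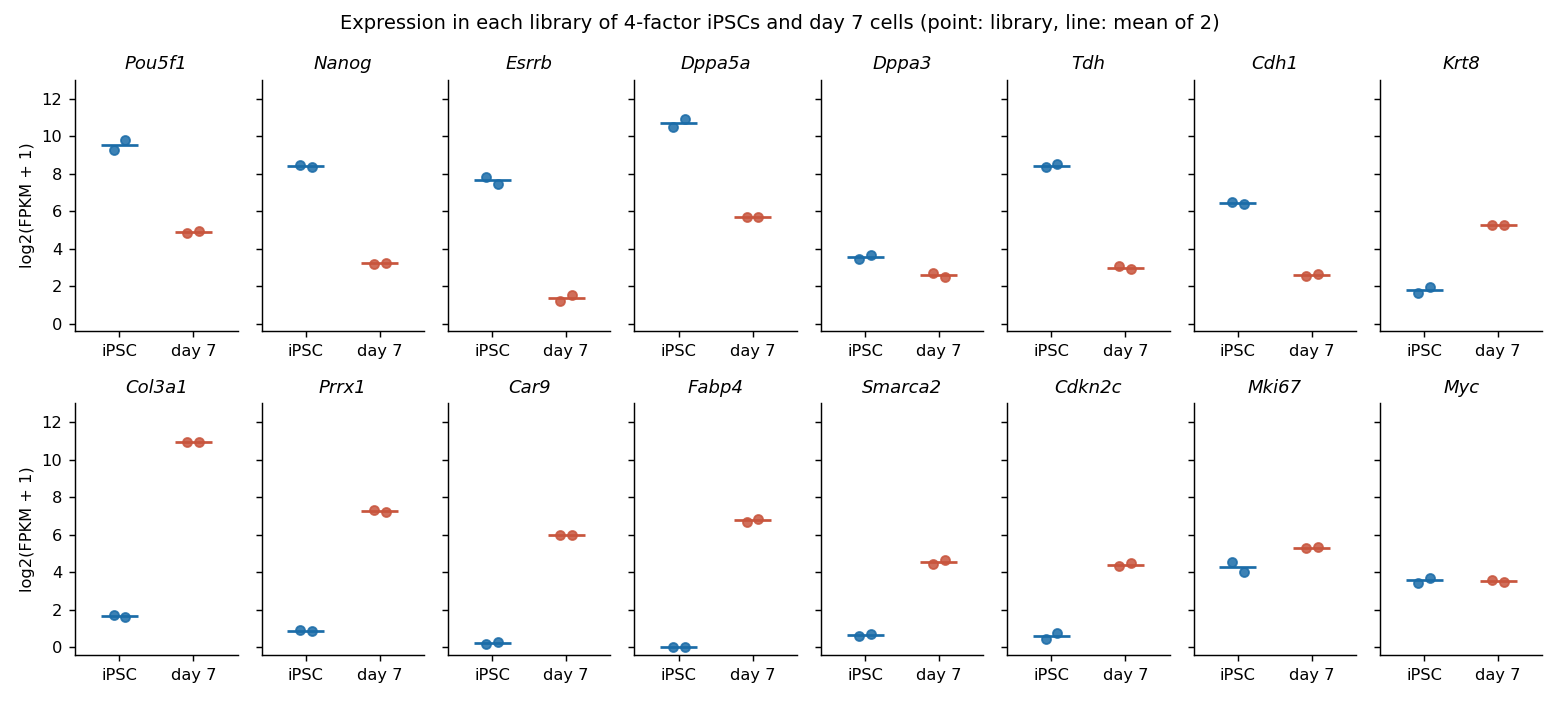
Each panel shows 1 gene, with iPSC libraries left in blue and day 7 libraries right in red, as log2(FPKM + 1); points are libraries and lines the mean of 2. Pluripotency genes such as Nanog and Esrrb are high in both iPSC libraries, Dppa3 differs little, Col3a1, Prrx1, Car9, Fabp4, Smarca2 and Cdkn2c are high at day 7, and the Myc points overlap.

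Promoter sequence was searched for each gene list but the mitochondrial-encoded genes, in windows from 250 bases before to 50 bases after the start of each gene (RefSeq, GRCm38.p6). Letters searched on both strands were the octamer ATGCAAAT, read by Oct4, the E-box CACGTG, the E2F element GCGGGAA and the CCAAT box (CCAAT). The ERR element TCAAGGTCA, the sterol element TCACNCCAC, the C/EBP-ATF element TGATGNAAT and the CRE TGACGTCA were searched too. A match is a description and not a binding site, and the examples were chosen after values were seen. Shown are a pair of germline genes, a replication gene, a mitotic gene and a naive gene, with capitals for the E-box and E2F element in the germline genes, the E2F element in Mcm3, the CCAAT box in Ccnb2 and the octamer in Zfp42. Other matches, such as CCAAT boxes in Ddx4, Mcm3 and Zfp42, are left in lower case. Hormad1 lies at chr3:95559427-95559726 on the plus strand, Ddx4 at chr13:112652261-112652560 on the minus strand, Mcm3 at chr1:20820263-20820562 on the minus strand, Ccnb2 at chr9:70421505-70421804 on the minus strand and Zfp42 at chr8:43306960-43307259 on the minus strand.
Hormad1: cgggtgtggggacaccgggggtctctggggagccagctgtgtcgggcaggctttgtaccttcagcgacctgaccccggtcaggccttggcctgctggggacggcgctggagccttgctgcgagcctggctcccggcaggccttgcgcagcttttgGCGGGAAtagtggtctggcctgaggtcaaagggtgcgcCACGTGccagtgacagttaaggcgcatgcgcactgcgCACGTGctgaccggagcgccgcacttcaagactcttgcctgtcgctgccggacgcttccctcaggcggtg
Ddx4: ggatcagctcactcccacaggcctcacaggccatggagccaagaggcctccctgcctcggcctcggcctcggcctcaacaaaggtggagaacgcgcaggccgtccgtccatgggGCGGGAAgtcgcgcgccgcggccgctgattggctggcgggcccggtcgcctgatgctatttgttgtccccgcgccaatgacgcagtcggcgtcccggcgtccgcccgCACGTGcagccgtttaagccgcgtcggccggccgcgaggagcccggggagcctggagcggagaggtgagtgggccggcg
Mcm3: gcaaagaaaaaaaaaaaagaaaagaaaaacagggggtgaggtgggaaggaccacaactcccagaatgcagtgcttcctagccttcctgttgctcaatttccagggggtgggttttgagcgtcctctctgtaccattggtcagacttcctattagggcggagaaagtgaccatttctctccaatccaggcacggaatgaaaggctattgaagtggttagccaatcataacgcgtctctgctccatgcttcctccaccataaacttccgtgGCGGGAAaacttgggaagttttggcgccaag
Ccnb2: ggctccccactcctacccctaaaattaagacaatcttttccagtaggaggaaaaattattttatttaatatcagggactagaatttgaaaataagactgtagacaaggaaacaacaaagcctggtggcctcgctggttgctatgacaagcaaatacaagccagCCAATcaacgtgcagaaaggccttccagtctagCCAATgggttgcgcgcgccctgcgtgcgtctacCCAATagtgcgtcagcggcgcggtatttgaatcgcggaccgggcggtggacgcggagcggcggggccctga
Zfp42: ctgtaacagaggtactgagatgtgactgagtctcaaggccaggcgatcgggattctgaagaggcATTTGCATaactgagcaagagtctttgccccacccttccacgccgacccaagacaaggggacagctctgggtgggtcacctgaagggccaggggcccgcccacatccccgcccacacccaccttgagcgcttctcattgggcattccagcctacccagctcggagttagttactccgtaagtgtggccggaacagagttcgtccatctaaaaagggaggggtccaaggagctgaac

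Positions are counted from the start of the gene, with the first base of each match given. In Hormad1 the capitals are an E2F element at -95 and E-boxes at -57 and -20. Ddx4 holds an E2F element at -136 and an E-box at -29, Mcm3 an E2F element at 19, and Ccnb2 CCAAT boxes at -87, -54 and -21. Zfp42 holds the octamer at -186, read on the opposite strand. Over all 27025 promoters of the table, 7.24% held the E-box, 4.66% the E2F element, 37.92% the CCAAT box and 1.75% the octamer. The E-box was in 11 of 21 germline promoters (52.4%) and in 7 of 26 ribosome biogenesis promoters (26.9%). The E2F element was in 11 of 24 replication promoters (45.8%), and the CCAAT box in 18 of 21 mitotic promoters (85.7%). The CCAAT box was as frequent in other lists, with 14 of 16 cholesterol promoters (87.5%), 12 of 14 promoters of 2-cell genes (85.7%) and 14 of 17 serine and one-carbon promoters (82.4%). The sterol element was in 1 of 16 cholesterol promoters, and the ERR element in 0 of 13 promoters of naive factors. Among naive transcription factors, 2 of 13 promoters held the octamer, those of Zfp296 and Zfp42.

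Germline genes whose promoters are kept silent by DNA methylation in somatic cells were mostly low at day 7. Of 23 listed, 17 were tested, 15 rose, 1 fell and 1 was not called, but 12 were above the minimum in iPSCs only. Among the other 5, 3 rose. Of the 8 tested members with an E-box in the promoter window, 7 rose and 1 fell (median 1.96). Of the 7 with a window and no E-box, 6 rose (median 4.13). With an E2F element 5 of 5 rose (median 3.09), and 8 of 10 without it (median 2.46). Both splits include members above the minimum in iPSCs only, which the filter selected for higher values. They are descriptions and do not compare genes with and without a motif fairly. Ddx4, the germ cell RNA helicase Vasa, had 5.39 and 4.96 FPKM in iPSCs, against 1.04 and 0.876 FPKM at day 7 (1.66). Hormad1, a meiotic chromosome axis protein, had 11.2 and 7.41 FPKM in iPSCs, against 0.176 and 0.199 FPKM at day 7, and was above the minimum in iPSCs only. Rhox5, an X-linked homeobox gene, had 56.0 and 110 FPKM in iPSCs, against 1.49 and 3.30 FPKM at day 7 (4.60). Brdt, a testis bromodomain protein, was the member that fell, with 0.340 and 0.201 FPKM in iPSCs, against 1.61 and 1.69 FPKM at day 7 (-1.06), a call that was lost without iPSC replicate 2 (-0.98). Mael, a piRNA pathway protein, was above the minimum in iPSCs only, with 6.58 and 7.54 FPKM there, and was listed at 0 in both day 7 libraries.

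Transcripts of the 2-cell embryo, which a small changing fraction of mouse embryonic stem cells expresses, were low or listed at 0 at day 7. All 12 tested members were above the minimum in iPSCs only, 11 were called higher and Tcstv1 was not called. The Zscan4 genes, which act at telomeres, were listed at 0 in both day 7 libraries, and their iPSC values ran from 5.43 FPKM for Zscan4b to 23.0 FPKM for Zscan4f. These genes are near-identical copies, so the split of reads between them is uncertain. Gm4340, a gene of the same stage, had 16.6 and 18.7 FPKM in iPSCs, against 0.232 and 0.153 FPKM at day 7. Duxf3, which encodes the Dux activator of this stage, had 0.435 and 0.492 FPKM in iPSCs and was listed at 0 at day 7.

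Chromatin regulators changed member by member, and the lists moved in both directions. Of 17 genes of DNA methylation, 9 rose, 2 fell and 6 were not called (median 1.04). Dnmt3l, the co-factor of the de novo enzymes, had 47.9 and 61.6 FPKM in iPSCs, against 2.16 and 3.01 FPKM at day 7 (3.96). Uhrf1, which guides the maintenance enzyme to new DNA, had 141 and 152 FPKM in iPSCs, against 16.6 and 17.8 FPKM at day 7 (3.01). For both genes the groups were far apart. Tet1, an oxidase that starts demethylation, had 26.7 and 17.3 FPKM in iPSCs, against 1.57 and 1.41 FPKM at day 7 (3.18), while Tet3, another member of that family, fell to 0.736 and 0.47 FPKM in iPSCs, against 2.60 and 3.22 FPKM at day 7 (-1.29). Zfp57, a zinc finger protein that keeps imprints methylated, had 252 and 237 FPKM in iPSCs, against 17.2 and 16.5 FPKM at day 7 (3.78). Dnmt3a, a de novo enzyme, rose, with 22.2 and 11.2 FPKM in iPSCs, against 9.02 and 5.70 FPKM at day 7 (1.04), and lost its call without iPSC replicate 1 (0.58) or day 7 replicate 2 (0.75). Mbd2, a reader of methylated DNA, fell to 7.08 and 7.21 FPKM in iPSCs, against 37.1 and 38.9 FPKM at day 7 (-2.26).

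Polycomb genes, whose complexes silence developmental regulators, gave 12 rises, 5 falls and 8 genes not called among 25 (median 0.83). With a minimum of 5 FPKM, 12 rose and 3 fell among 22 (median 1.76). Cbx7, the form that prevails in embryonic stem cells, had 50.5 and 52.3 FPKM in iPSCs, against 1.25 and 2.45 FPKM at day 7 (4.23 ± 0.23, limma adjusted p = 3.32e-07). Cbx6 fell to 11.3 and 15.1 FPKM in iPSCs, against 30.5 and 34.0 FPKM at day 7 (-1.24). These chromodomain subunits differed in direction, with Cbx7 higher and Cbx6 lower in iPSCs. Bmi1, a ring finger subunit that represses the Ink4a locus, had 4.18 and 3.59 FPKM in iPSCs, against 17.3 and 16.7 FPKM at day 7 (-1.88). Its relative Pcgf6, an embryonic stem cell subunit, had 38.8 and 34.0 FPKM in iPSCs, against 6.51 and 5.55 FPKM at day 7 (2.41). Among partners of the methylating complex, Mtf2 had 138 and 98.9 FPKM in iPSCs, against 11.1 and 9.54 FPKM at day 7 (3.39), and Epop had 82.5 and 145 FPKM, against 4.88 and 5.26 FPKM (4.18). Phf1, a relative of Mtf2, fell to 1.39 and 2.51 FPKM in iPSCs, against 9.04 and 9.34 FPKM at day 7 (-1.81). None of the Polycomb genes with values here overlapped between groups, as was so for 85.4% of all tested genes.

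BAF remodelling complexes use either Brg1 or Brm as their motor, and embryonic stem cells are known to use Brg1. Of 15 subunits, 5 rose, 2 fell and 8 were not called (median 0.72), where 23.9% of all tested genes rose and 21.8% fell. Smarca2, which encodes Brm, had 0.549 and 0.664 FPKM in iPSCs, against 21.1 and 24.1 FPKM at day 7 (-3.87 ± 0.14, limma adjusted p = 3.18e-08). Smarca4, which encodes Brg1, had 55.0 and 58.5 FPKM in iPSCs, against 19.7 and 22.6 FPKM at day 7 (1.38). The scaffold pair also differed in direction. Smarcc1 had 76.3 and 60.2 FPKM in iPSCs, against 18.7 and 18.1 FPKM at day 7 (1.83), and Smarcc2 had 6.97 and 6.76 FPKM, against 29.7 and 33.1 FPKM (-2.04). All these groups were apart, as were those of 85.4% of all tested genes. At day 7 Smarca2 stood above its mean of 11.4 FPKM at day 0, although that difference was not called.

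**Figure D3:**
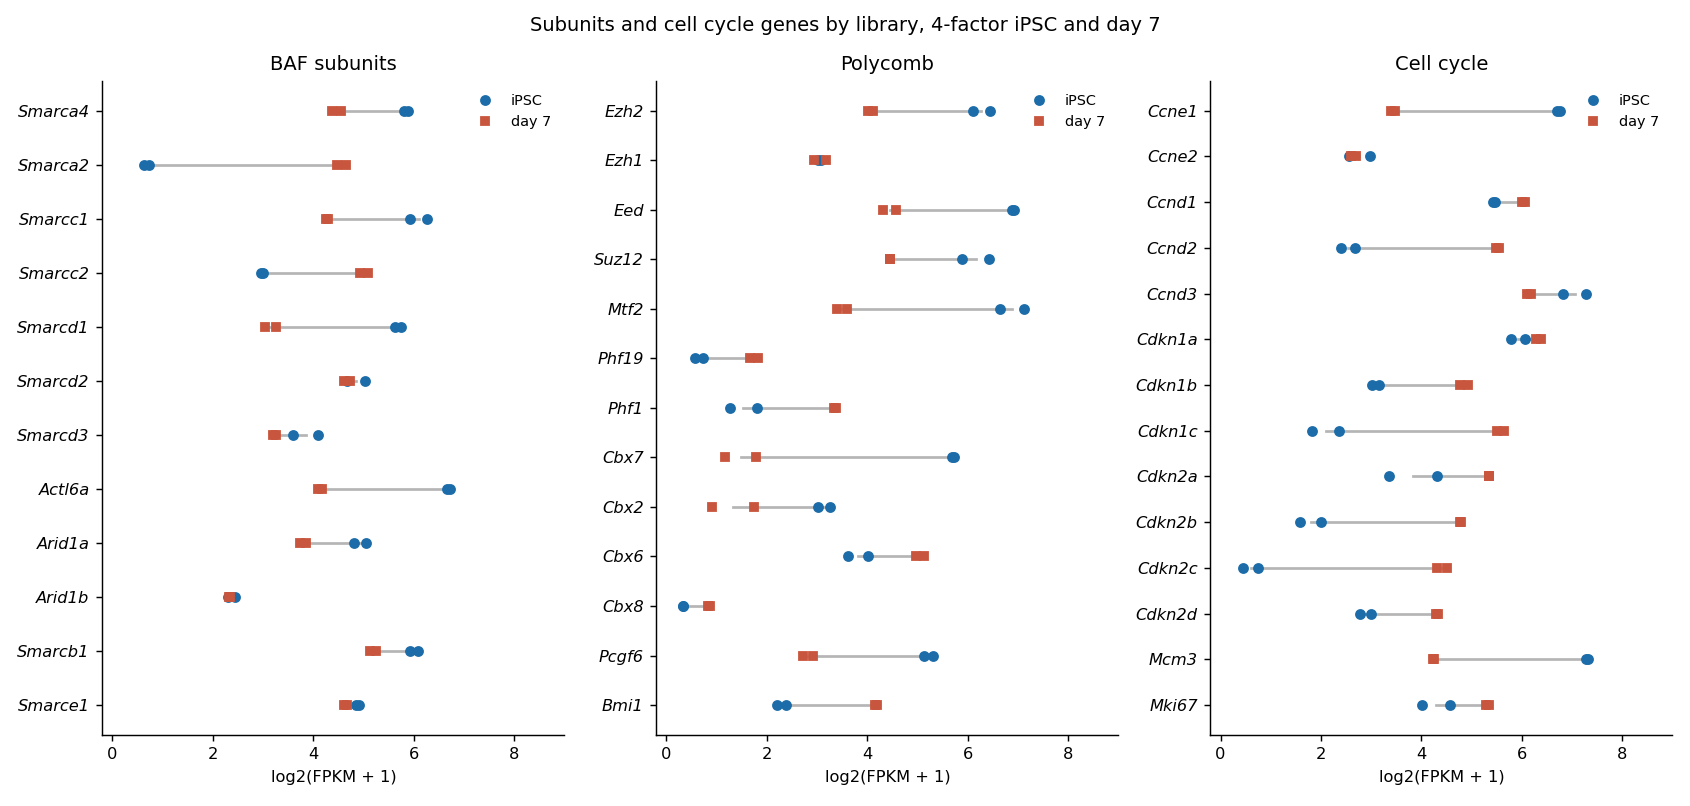
Points are single libraries, iPSC in blue and day 7 in red, joined by a grey line between the group means, as log2(FPKM + 1), for BAF subunits, Polycomb genes and cell cycle genes. Smarca2, Smarcc2, Bmi1, Cbx6 and Cdkn2c are higher at day 7, whereas Smarca4, Smarcc1, Cbx7 and Ccne1 are higher in iPSCs.

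Among 23 genes that silence transposons or build heterochromatin, 14 rose, none fell and 9 were not called (median 1.39). Of these, 4 were above the minimum in iPSCs only, and of the other 19, 10 rose. Trim28, the co-repressor recruited by KRAB zinc finger proteins, had 663 and 701 FPKM in iPSCs, against 101 and 98.7 FPKM at day 7 (2.76). Hells, a remodeller needed for DNA methylation, had 79.5 and 55.1 FPKM in iPSCs, against 7.49 and 6.21 FPKM at day 7 (3.10). Of 22 RNA-binding and splicing genes, 12 rose, 3 fell and 7 were not called (median 1.17). Here 3 were above the minimum in iPSCs only, and of the other 19, 9 rose and 3 fell. Lin28a, which blocks maturation of let-7 microRNAs, had 84.2 and 93.6 FPKM in iPSCs, against 0.379 and 0.453 FPKM at day 7 (5.99). The falls were Mbnl1 (-2.79), Mbnl2 (-3.81) and Celf2 (-2.28), splicing regulators of differentiated cells. Mbnl2 had 5.41 and 3.91 FPKM in iPSCs, against 80.8 and 74.8 FPKM at day 7.

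Genes of ribosome production rose throughout. All 30 genes of ribosome biogenesis were called higher, with a median of 2.33, none of them a gene that passed the filter through iPSCs alone. Ncl, nucleolin, had 324 and 315 FPKM in iPSCs, against 50 and 52.9 FPKM at day 7 (2.61). Dkc1, the pseudouridine synthase dyskerin, had 138 and 128 FPKM in iPSCs, against 11.7 and 11.5 FPKM at day 7 (3.42). Polr1b, a core subunit of RNA polymerase I, had 39.0 and 36.1 FPKM in iPSCs, against 4.48 and 5.32 FPKM at day 7 (2.71). The summed FPKM of the list was 4006 and 4010 in iPSCs, against 779 and 848 at day 7; at day 2 it had been 1786 and 1782.

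Among DNA replication genes the rises were almost as general, with 26 of 29 called higher, none lower and 3 not called (median 2.04). Mcm3, a subunit of the replicative helicase, had 155 and 159 FPKM in iPSCs, against 18.1 and 17.9 FPKM at day 7 (3.05 ± 0.10, limma adjusted p = 2.2e-08). Mcm10, which helps fire origins, had 62.2 and 60.7 FPKM in iPSCs, against 4.58 and 4.91 FPKM at day 7 (3.44). The 3 genes not called were Gins3, Tk1 and Rrm1. Rrm1, the large subunit of ribonucleotide reductase, had 69.7 and 61.7 FPKM in iPSCs, against 42.6 and 42.3 FPKM at day 7 (0.62). Of the 11 tested members with an E2F element in the promoter window, 9 rose (median 2.05), and of the 13 with a window and no element, 12 rose (median 2.04).

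Mitotic genes moved less, with 10 higher, 1 lower and 14 not called among 25 (median 0.71). Ccnb1, cyclin B1, had 197 and 160 FPKM in iPSCs, against 67.0 and 63.8 FPKM at day 7 (1.43). Ccnb2, whose promoter with its CCAAT boxes is printed above, had 69.2 and 72.4 FPKM in iPSCs, against 72.1 and 66.1 FPKM at day 7, and its groups overlapped (0.04 ± 0.10). Mki67, the proliferation marker Ki-67, fell, with 22.8 and 15.1 FPKM in iPSCs, against 38.1 and 39.9 FPKM at day 7 (-1.03 ± 0.28, limma adjusted p = 0.009). That call was lost without iPSC replicate 2 (-0.75), without day 7 replicate 2 (-1.0) and on median-centred values. Top2a, topoisomerase II alpha, had 212 and 161 FPKM in iPSCs, against 87.6 and 90.8 FPKM at day 7 (1.04), and lost its call without iPSC replicate 1 (0.84). Plk1, a mitotic kinase (1.06), and Cdc20, an activator of the anaphase complex (1.11), were called higher and lost their calls without iPSC replicate 2 (0.96 and 0.95), Plk1 also without day 7 replicate 1 (0.89).

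Among 26 cell cycle inhibitors, D cyclins and p53 genes, 5 rose, 9 fell and 12 were not called (median -0.10), and without iPSC replicate 2 the split was 3 higher and 8 lower. Over all tested genes, 23.9% rose and 21.8% fell. Cdkn2c, the CDK4 and CDK6 inhibitor p18, had 0.366 and 0.680 FPKM in iPSCs, against 18.9 and 21.8 FPKM at day 7 (-3.81 ± 0.17, limma adjusted p = 1.19e-07). Cdkn2b, p15, fell to 2.00 and 3.02 FPKM in iPSCs, against 26.4 and 26.8 FPKM at day 7 (-2.99), and Cdkn2a, the Ink4a and Arf gene, to 9.27 and 18.8 FPKM, against 39.6 and 39.5 FPKM (-1.51). The groups of these inhibitors did not overlap, as was so for 85.4% of all tested genes. Cdkn1a, p21, had 54.4 and 66.3 FPKM in iPSCs, against 77.3 and 82.5 FPKM at day 7, a difference of -0.40 that was not called. Ccne1, cyclin E1, had 103 and 107 FPKM in iPSCs, against 9.45 and 10.1 FPKM at day 7 (3.30). Trp53, p53 itself, had 146 and 180 FPKM in iPSCs, against 36.7 and 36.6 FPKM at day 7 (2.11).

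Genes of the fibroblast programme were high at day 7 and much lower in the line. Of 27 tested mesenchymal regulators and surface genes, 26 fell and 1 rose (median -3.85). Prrx1, a homeobox factor of limb and body wall mesenchyme, had 0.909 and 0.802 FPKM in iPSCs, against 161 and 149 FPKM at day 7 (-6.39 ± 0.10, limma adjusted p = 2.36e-09). Twist1, a driver of the mesenchymal state, had 0.754 and 1.39 FPKM in iPSCs, against 57.0 and 55.3 FPKM at day 7 (-4.80). Both genes were close to the minimum in iPSCs. Zeb1, a repressor of epithelial genes, had 5.46 and 3.59 FPKM in iPSCs, against 32.6 and 28.1 FPKM at day 7 (-2.52). The rise was Eng, endoglin, a TGF-beta co-receptor, with 14.8 and 15.7 FPKM in iPSCs, against 5.32 and 6.33 FPKM at day 7 (1.26).

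All 30 extracellular matrix genes fell, with a median of -5.75. Col3a1, collagen III, had 2.33 and 2.02 FPKM in iPSCs, against 2007 and 1935 FPKM at day 7 (-9.28 ± 0.12, limma adjusted p = 1.45e-09), the steepest fall among the genes named by rank. Lum, lumican, had 0.0824 and 0.0201 FPKM in iPSCs, against 624 and 572 FPKM at day 7 (-9.15). Fn1, fibronectin, fell least, with 168 and 132 FPKM in iPSCs, against 374 and 396 FPKM at day 7 (-1.36). Summed over the list, matrix genes made 396 and 361 FPKM in iPSCs, against 15352 and 15451 FPKM at day 7 and 12495 and 11588 FPKM at day 0. Lum and Dcn, decorin, were higher at day 7 than in the starting MEFs, which averaged 34.8 and 37.2 FPKM for these genes.

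Contractile genes gave 15 falls of 16 and no rise (median -3.28), with Myh9, the non-muscle myosin, not called. Acta2, smooth muscle actin, had 10.1 and 11 FPKM in iPSCs, against 266 and 296 FPKM at day 7 (-4.60). The list summed to 147 and 175 FPKM in iPSCs, against 1296 and 1482 FPKM at day 7 and 4578 and 4674 FPKM at day 0. Of 28 tested Hox genes, which record body position, 23 fell and none rose (median -1.68). Hoxd13, a gene of the distal limb, had 0.664 and 0.636 FPKM in iPSCs, against 43.8 and 44.7 FPKM at day 7 (-4.78), and Hoxa10 had 0.377 and 0.293 FPKM, against 26.8 and 27.4 FPKM (-4.40).

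The iPSCs were on feeder cells, which are fibroblasts, and so 12 genes listed as defining fibroblasts were summed. They made 45 and 47.8 FPKM in iPSCs, against 9389 and 9359 FPKM at day 7, and all 12 fell (median -6.64). The highest of them in iPSCs were Col1a1, with 16.5 and 18.5 FPKM, and Col1a2, with 12.0 and 14.2 FPKM, while Lum and Fap were at 0.105 FPKM or less. The part of feeder RNA in these levels was not tested.

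Secreted and defence genes were lower too. Of 23 cytokines, chemokines and proteases, 18 fell, none rose and 5 were not called (median -2.75); 4 of the falls were genes that passed the filter only through day 7. Cxcl12, a stromal chemokine, had 0.394 and 0.336 FPKM in iPSCs, against 216 and 229 FPKM at day 7 (-7.35). Mmp3, stromelysin, had 0.289 and 0.0646 FPKM in iPSCs, against 186 and 188 FPKM at day 7 (-7.33). Both were close to 0 in iPSCs. Lif, the cytokine supplied to the iPSC medium, was near the minimum in both groups, with 1.24 and 1.17 FPKM in iPSCs, against 0.750 and 0.702 FPKM at day 7 (0.35, not called). Interferon and antigen presentation genes gave 15 falls, 1 rise and 10 not called among 26 (median -1.43), with 1 of the falls above the minimum only through day 7. B2m, the MHC class I light chain, had 29.0 and 28.2 FPKM in iPSCs, against 403 and 394 FPKM at day 7 (-3.75). Oas1a, an RNA sensor, was the rise, with 24.2 and 28.6 FPKM in iPSCs, against 3.12 and 2.39 FPKM at day 7 (2.87), while Oasl2, of the same family, fell, with 2.09 and 2.40 FPKM in iPSCs, against 10.4 and 9.35 FPKM at day 7 (-1.75).

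Epithelial genes divided between junctions and keratins. Of 28 junction genes, 14 rose, 2 fell and 12 were not called (median 1.01), and of the 24 that passed the filter outside iPSCs, 11 rose. Cdh1, E-cadherin, which holds pluripotent colonies together, had 89.9 and 83.5 FPKM in iPSCs, against 4.90 and 5.32 FPKM at day 7 (3.84 ± 0.17, limma adjusted p = 8.72e-08). Spint1, a membrane protease inhibitor, had 41.2 and 50.7 FPKM in iPSCs, against 1.65 and 1.86 FPKM at day 7 (4.08). Epcam, an adhesion molecule of epithelia and stem cells, had 28.8 and 31.7 FPKM in iPSCs, against 8.19 and 8.82 FPKM at day 7 (1.72); at day 4 it had averaged 20.9 FPKM. Each of these was higher in both iPSC libraries than in either day 7 library. The falls were Dsc2, desmocollin 2 (-1.07), and Rab25, an epithelial trafficking GTPase (-1.13), both at low levels. Dsc2 lost its call without day 7 replicate 1 (-0.92) and Rab25 without iPSC replicate 1 (-1.0). Esrp1, an epithelial splicing factor, had 1.29 and 0.959 FPKM in iPSCs, against 2.41 and 1.63 FPKM at day 7 (-0.50, not called).

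Keratins and stratified epithelium genes were mostly lower, with 17 falls, 2 rises and 5 not called among 24 (median -1.64); 3 of the falls passed the filter only through day 7. Krt8, a keratin of simple epithelia, had 2.12 and 2.89 FPKM in iPSCs, against 37.1 and 37.3 FPKM at day 7 (-3.45 ± 0.14, limma adjusted p = 5.79e-08). Krt17, a keratin of activated epidermis, had 1.31 and 2.67 FPKM in iPSCs, against 19 and 20.1 FPKM at day 7 (-2.82). Perp, a desmosomal p53 target, had 4.85 and 3.95 FPKM in iPSCs, against 24.6 and 23.0 FPKM at day 7 (-2.20), after a mean of 99.2 FPKM at day 4. The rises were Itga6, the laminin receptor subunit that stem cells share with epidermis (1.37), and Lama3, above the minimum in iPSCs only.

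**Figure D4:**
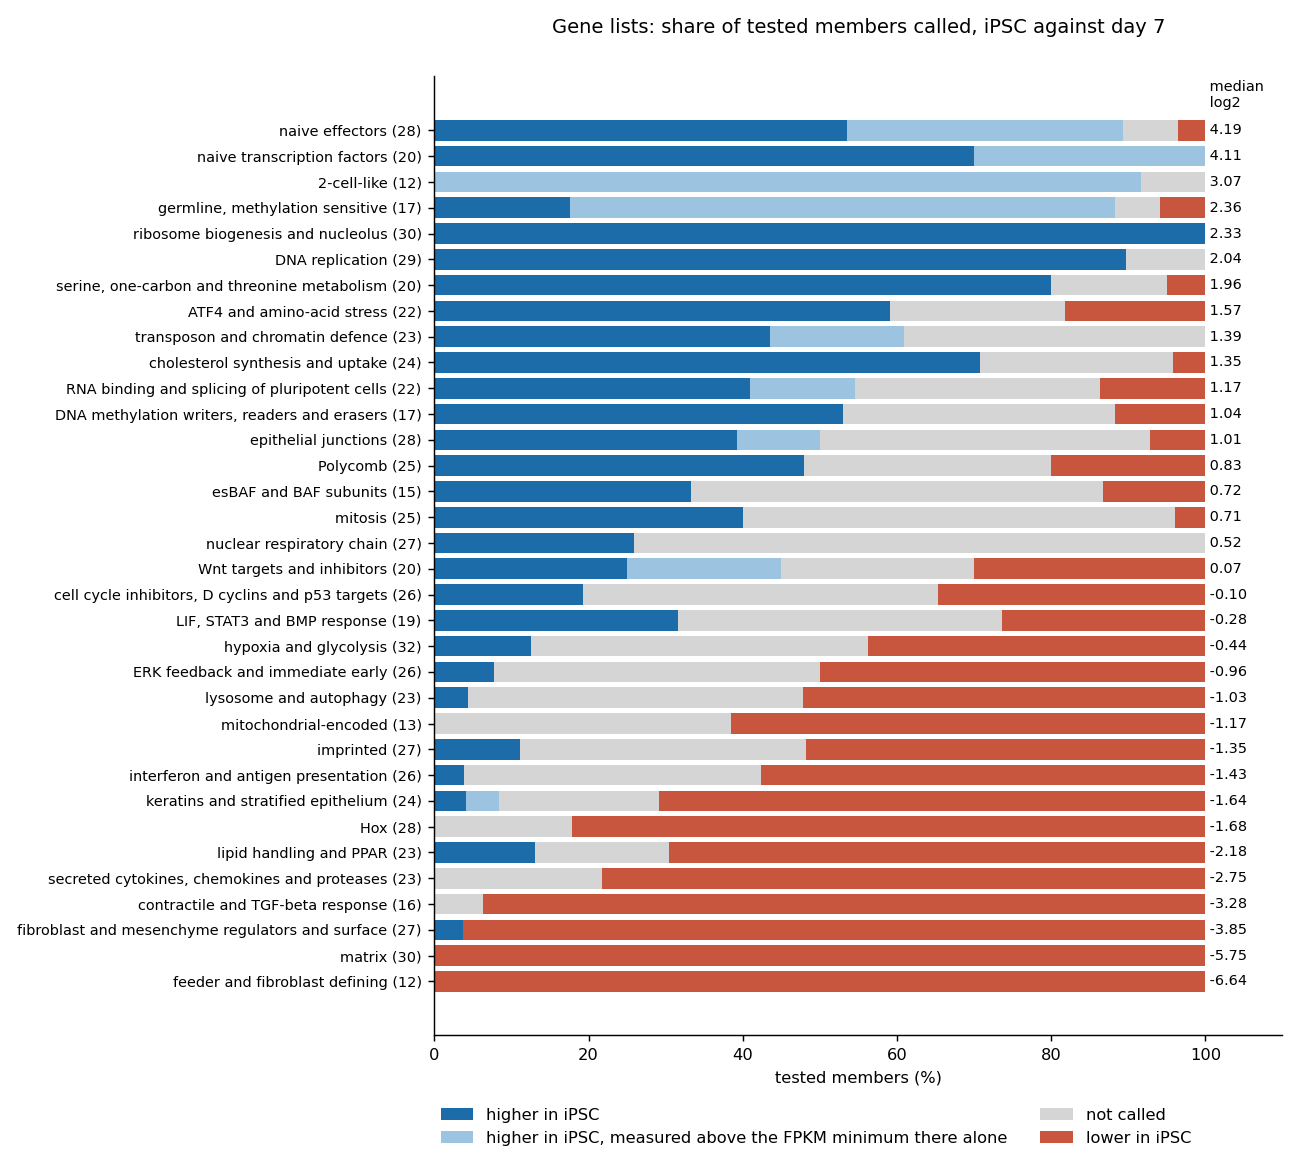
For each list with at least 12 tested members (number in brackets), bars give the percentage of tested members called higher in iPSCs (blue), not called (grey) and called lower (red); light blue marks rises of genes above the FPKM minimum in iPSCs alone, and the number at the right is the median log2 difference. Ribosome biogenesis is fully blue, naive factors blue or light blue, matrix genes fully red, and chromatin, mitosis, Wnt and LIF lists are mixed.

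Metabolic lists moved in several directions from day 7 to the line. Of 24 cholesterol genes, 17 rose, 1 fell and 6 were not called (median 1.35). Insig1, which retains the sterol sensor in the endoplasmic reticulum, had 72.5 and 67.6 FPKM in iPSCs, against 17.2 and 17.0 FPKM at day 7 (1.97 ± 0.12, limma adjusted p = 6.18e-07). Sqle, the squalene epoxidase of the pathway, had 63.1 and 54.2 FPKM in iPSCs, against 20.7 and 22.7 FPKM at day 7 (1.39). Abca1, which exports cholesterol, was the fall, with 1.32 and 0.776 FPKM in iPSCs, against 6.05 and 5.37 FPKM at day 7 (-1.72). The list summed to 1076 and 1071 FPKM in iPSCs, against 379 and 389 FPKM at day 7, 453 and 514 FPKM at day 4 and 1308 and 1274 FPKM at day 0, and the iPSC sum lay between those of day 7 and day 0. The labels name no serum in the iPSC medium and 10% fetal bovine serum at day 7, and the part of serum in these values was not tested.

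Genes of amino acid supply were mostly higher in iPSCs. Of 22 tested targets of ATF4, the factor of amino acid shortage, 13 rose, 4 fell and 5 were not called (median 1.57). Asns, asparagine synthetase, had 323 FPKM in each iPSC library, against 20.8 and 21.3 FPKM at day 7 (3.88 ± 0.13, limma adjusted p = 2.3e-08). Slc7a5, the large neutral amino acid transporter, had 98.8 and 88.1 FPKM in iPSCs, against 12.4 and 12.5 FPKM at day 7 (2.81). Atf5, a transcription factor of that response, fell, with 12 and 15.8 FPKM in iPSCs, against 37.7 and 40.1 FPKM at day 7 (-1.42), and Ddit3, the stress factor CHOP, had 4.1 and 5.13 FPKM, against 8.16 and 9.52 FPKM (-0.81, not called). The other falls were Vldlr, a lipoprotein receptor (-1.89), Nupr1, a stress-induced nuclear protein (-1.47), and Slc7a11, the cystine transporter (-1.07), whose call was lost without iPSC replicate 2.

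Among 20 genes of serine, one-carbon and threonine metabolism, 16 rose, 1 fell and 3 were not called (median 1.96). Besides Tdh, Gldc, the decarboxylase of glycine cleavage, had 58.3 and 63.6 FPKM in iPSCs, against 1.49 and 1.61 FPKM at day 7 (4.60). Mthfd1, a cytosolic folate enzyme, had 103 and 124 FPKM in iPSCs, against 10.9 and 12.0 FPKM at day 7 (3.19). Aldh1l2, a mitochondrial folate enzyme, fell, with 0.392 and 0.381 FPKM in iPSCs, against 7.57 and 7.52 FPKM at day 7 (-2.62).

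**Figure D5:**
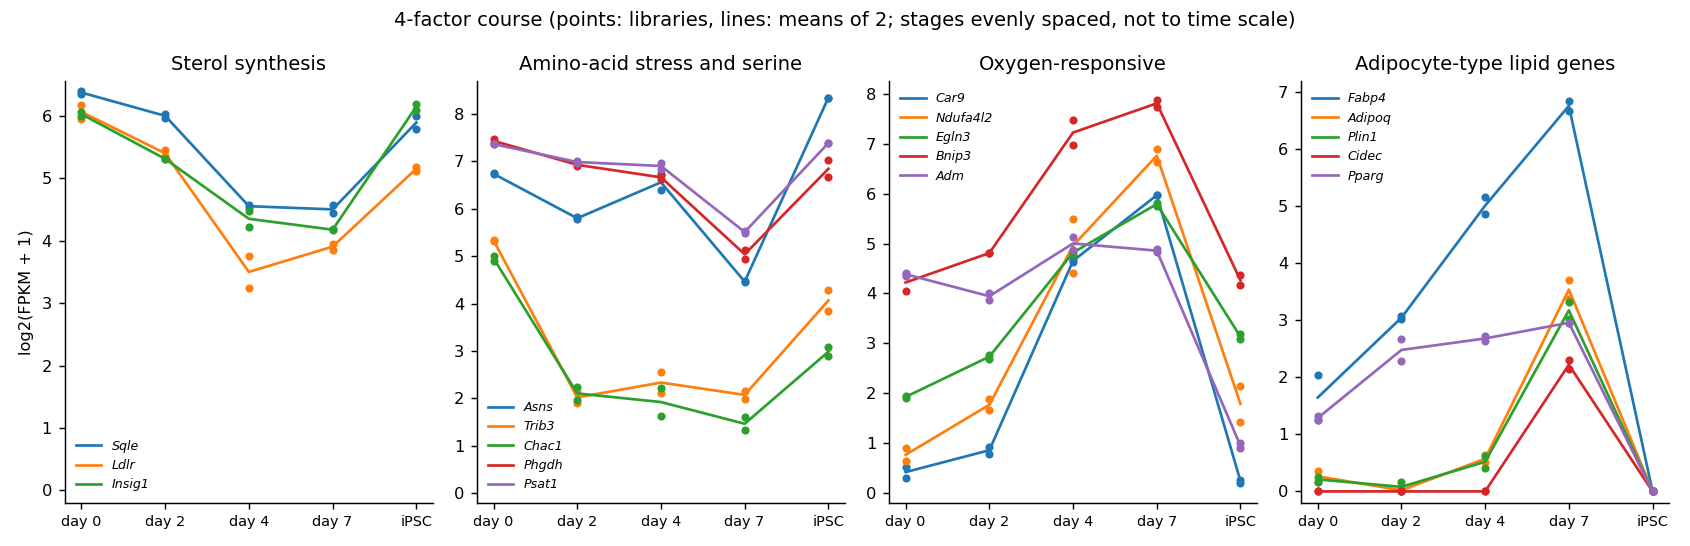
Panels follow genes of sterol synthesis, amino-acid stress and serine synthesis, oxygen response and adipocyte-type lipid handling over day 0, 2, 4, 7 and iPSC, with points for libraries and lines through the means, as log2(FPKM + 1). Sterol and amino-acid genes dip by day 7 and are high again in iPSCs, while Car9, Ndufa4l2, Fabp4 and Adipoq peak at day 7. The genes were picked for display, and Car9, Ndufa4l2 and Fabp4 are in the set chosen for high day 7 values. List members that rose in iPSCs, such as Slc2a3 and Fasn, are not shown.

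Genes of glycolysis and low oxygen moved in both directions. Of 32 tested, 4 rose, 14 fell and 14 were not called (median -0.44). Car9, a carbonic anhydrase that is a classic hypoxia marker, had 0.154 and 0.202 FPKM in iPSCs, against 61.7 and 61.6 FPKM at day 7 (-5.73 ± 0.13, limma adjusted p = 5.11e-09). Bnip3, a mitophagy receptor induced in low oxygen, had 19.6 and 16.9 FPKM in iPSCs, against 234 and 214 FPKM at day 7 (-3.55). Both were far below every day 7 library in iPSCs. Adm, adrenomedullin, had 0.862 and 0.987 FPKM in iPSCs, against 27.3 and 28.7 FPKM at day 7 (-3.91). The rises were Slc2a3, a glucose transporter, with 217 and 213 FPKM in iPSCs, against 15.4 and 16.0 FPKM at day 7 (3.70), Hk2, hexokinase 2 (2.99), Ldhb, the heart form of lactate dehydrogenase (2.73), and Pfkp, a phosphofructokinase (1.01), whose call was lost without iPSC replicate 2 (0.98). Ldha, the other lactate dehydrogenase, fell, with 331 and 423 FPKM in iPSCs, against 804 and 848 FPKM at day 7 (-1.14), and lost its call without iPSC replicate 1 (-0.96). Pkm and Eno1, core glycolytic enzymes, overlapped between groups.

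Of 27 nuclear genes of the respiratory chain, 7 rose, none fell and 20 were not called (median 0.52). The share of rises was close to the 23.9% of all tested genes that rose, whereas 21.8% of all tested genes fell. Cox5a, a cytochrome oxidase subunit, had 204 and 296 FPKM in iPSCs, against 60.7 and 66.2 FPKM at day 7 (1.94), and Atp5b, the catalytic subunit of ATP synthase, had 744 and 854 FPKM, against 290 and 313 FPKM (1.40). Of the 13 mitochondrially encoded genes, 8 fell and 5 were not called (median -1.17). This count rests on 1 library: without iPSC replicate 2 only 1 gene fell, and the median was -0.74. mt-Nd2, for example, had 1580 and 880 FPKM in iPSCs, against 3502 and 2776 FPKM at day 7 (-1.40), and -0.98 without that library. With no filter on low values, or without day 7 replicate 1, 5 of the 13 fell.

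Lipid handling genes gave 16 falls, 3 rises and 4 not called among 23 (median -2.18), and 4 of the falls (Cd36, Plin1, Cidec and Adipoq) were of genes that passed the filter only through day 7. Fabp4, the fatty acid carrier of adipocytes, was listed at 0 in both iPSC libraries, against 101 and 115 FPKM at day 7. Adipoq, adiponectin, and Plin1, a lipid droplet protein, were also listed at 0 in iPSCs, against 9.35 and 12 FPKM and 7.17 and 9.01 FPKM at day 7. Pparg, the master regulator of adipocytes, was listed at 0 in iPSCs, against 6.78 and 6.77 FPKM at day 7. Fabp3, a muscle-type fatty acid carrier, rose, with 26.8 and 50.6 FPKM in iPSCs, against 2.76 and 3.92 FPKM at day 7 (3.14), as did Fasn, fatty acid synthase, with 89.0 and 86.3 FPKM, against 19.8 and 21.5 FPKM (2.03). Of 23 lysosome and autophagy genes, 12 fell, 1 rose and 10 were not called (median -1.03). Ctsk, cathepsin K, fell to 0.426 and 0.344 FPKM in iPSCs, against 39.4 and 42.6 FPKM at day 7 (-4.92), and Tfeb, a master regulator of lysosomal genes, rose, with 19 and 24.9 FPKM, against 5.13 and 5.14 FPKM (1.89).

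The iPSC medium contains a MEK inhibitor, a GSK3 inhibitor and LIF, and genes downstream of each were listed. Of 26 ERK feedback and immediate early genes, 13 fell, 2 rose and 11 were not called (median -0.96). Jun, a subunit of the AP-1 factor, had 0.790 and 1.61 FPKM in iPSCs, against 30.3 and 33.0 FPKM at day 7 (-3.91). Fosl2, another AP-1 subunit, had 0.453 and 0.362 FPKM in iPSCs, against 17.5 and 17.1 FPKM at day 7 (-3.70), and Egr1, a rapid growth factor response gene, had 5.19 and 5.03 FPKM, against 37.1 and 40 FPKM (-2.69). All were lower in both iPSC libraries. Dusp6, an ERK phosphatase, overlapped between groups, with 13.7 and 11.9 FPKM in iPSCs, against 12.0 and 10.9 FPKM at day 7. The rises were Etv4 and Etv5, ETS factors of FGF signalling, and Etv5 had 98.7 FPKM in each iPSC library, against 15.1 and 18.8 FPKM at day 7 (2.48).

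Wnt genes gave 9 rises, 6 falls and 5 not called among 20 (median 0.07). Of these, 4 rises were of genes above the minimum in iPSCs only, and among the other 16 genes 5 rose and 6 fell (median -0.32). Axin2, the universal Wnt feedback target, had 9.90 and 9.93 FPKM in iPSCs, against 1.23 and 1.38 FPKM at day 7 (2.24). Cdx1, a posterior homeobox gene above the minimum in iPSCs only, had 29.0 and 37.9 FPKM there and was listed at 0 in both day 7 libraries. The falls were Dkk2, Dkk3, Sfrp2, Apcdd1, Lgr5 and Tcf7l2. Dkk2, a secreted Wnt modulator, had 0.361 and 0.581 FPKM in iPSCs, against 105 and 101 FPKM at day 7 (-6.14). Lgr5, a Wnt-amplifying receptor, fell as well, with 0 and 0.0651 FPKM in iPSCs, against 5.99 and 5.94 FPKM at day 7.

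LIF, STAT3 and BMP genes gave 6 rises, 5 falls and 8 not called among 19 (median -0.28). Both counts lay not far from the background, as 23.9% of all tested genes rose and 21.8% fell. Socs3, the direct feedback target of STAT3, had 37.6 and 56.9 FPKM in iPSCs, against 37.1 and 37.4 FPKM at day 7 (0.31, not called). Pim3, a kinase gene downstream of LIF, had 63.5 and 90.4 FPKM in iPSCs, against 8.93 and 9.10 FPKM at day 7 (2.94). In Pim3 the groups were far apart. Il6st, the shared receptor subunit gp130, fell, with 13 and 9.27 FPKM in iPSCs, against 75.2 and 77.1 FPKM at day 7 (-2.69). Id2, a BMP target, fell to 1.69 and 1.40 FPKM in iPSCs, against 28.4 and 29.9 FPKM at day 7 (-3.57), and Id1 (-2.05) and Id3 (-2.51) of that family fell too.

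Imprinted genes gave 14 falls, 3 rises and 10 not called among 27 (median -1.35). H19, a growth-restraining RNA of mesenchyme, had 1.74 and 2.03 FPKM in iPSCs, against 1621 and 1692 FPKM at day 7 (-9.17 ± 0.25, limma adjusted p = 9.23e-09). Igf2, the growth factor gene beside it, had 0.193 and 0.0164 FPKM in iPSCs, against 262 and 252 FPKM at day 7 (-7.87). Meg3, the RNA of the Dlk1 to Dio3 cluster, kept 44.3 and 45.3 FPKM in iPSCs, against 113 and 119 FPKM at day 7 (-1.35), and Rian of that cluster had 124 and 90.3 FPKM, against 213 and 199 FPKM (-0.95, not called). The rises were Phlda2, Snrpn and Zdbf2, Snrpn with 43.3 and 51.1 FPKM in iPSCs, against 6.45 and 7.02 FPKM at day 7 (2.64). Levels do not show which parental allele was read, and Airn, which overlaps Igf2r on the other strand, cannot be told apart from it, because no source used here gives the strand setting.

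Of 7 tested sex-chromosome genes, 3 rose, 2 fell and 2 were not called. Xist, the RNA that coats the inactive X chromosome, had 0.279 and 0.0875 FPKM in iPSCs, against 44.8 and 39.9 FPKM at day 7 (-5.20), with reads of its antisense partner Tsix not separable without strand. The Y-linked Eif2s3y, a translation factor, had 29.0 and 28.0 FPKM in iPSCs, against 7.37 and 5.75 FPKM at day 7 (1.97), and Ddx3y (1.35) and Uty (1.54) rose too. Kdm5d, also on Y, had 0.0822 and 0.0768 FPKM in iPSCs, against 0.878 and 1.19 FPKM at day 7 (-0.91, not called). The day 7 libraries hold Xist and Y-linked transcripts side by side. With a pseudocount of 0.1, or on values rescaled to TPM, 4 of the 7 genes fell.

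Markers of other lineages were low in both groups with named exceptions. Extra-embryonic endoderm gave 6 falls, 1 rise and 2 not called among 9 tested, but the falls (Pdgfra, Dab2, Col4a1, Col4a2, Lamb1 and Sparc) are genes that fibroblasts also express, and Sox17 and Foxa2 stayed at 0.357 FPKM or less. Trophoblast markers gave 4 rises, 2 falls and 3 not called among 9. Of these, 2 were above the minimum in iPSCs only, and of the other 7, 3 rose and 2 fell. Tfap2c, which naive cells share, had 17.7 and 20.5 FPKM in iPSCs, against 3.25 and 2.76 FPKM at day 7, and Cdx2 was at 0.252 FPKM or less. Neural markers gave 6 rises, 2 falls and 2 not called among 10, 3 of the rises being above the minimum in iPSCs only. Stmn2, a tubulin regulator of neurons, had 119 and 118 FPKM in iPSCs, against 36.9 and 36.0 FPKM at day 7 (1.68), while Dcx was at 0.0918 FPKM or less and Pax6 at 0.356 FPKM or less. Of 3 tested mesendoderm genes, 2 rose, T and Eomes, both above the minimum in iPSCs only. Macrophage markers gave 1 rise, 2 falls and 7 not called among 10, with Ptprc at 0.0938 FPKM or less. Laptm5, a lysosomal protein of blood cells, was that rise, with 42.1 and 37.2 FPKM in iPSCs, against 2.81 and 2.78 FPKM at day 7 (3.42). Endothelial genes gave 1 rise, 3 falls and 1 not called among 5. The rise was Pecam1, which naive cells express and which was above the minimum in iPSCs only, and Cdh5 was listed at 0 in iPSCs. Muscle genes gave 2 rises, 1 fall and 4 not called among 7. Mylpf, a fast muscle myosin light chain, had 70.3 and 113 FPKM in iPSCs, against 7.36 and 9.52 FPKM at day 7 (3.26), with Myog and Myod1 at 0.134 FPKM or less.

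Ranked by size alone, among genes with at least 10 FPKM in the higher group, the largest rise was Lncenc1, a long non-coding RNA of embryonic stem cells. It had 175 and 132 FPKM in iPSCs, against 0.346 and 1.13 FPKM at day 7 (6.50). The others of the 12 largest rises that passed the filter outside iPSCs were Esrrb, Lin28a, Platr14 and Alpl. Platr14, a pluripotency-linked RNA, had 104 and 90.8 FPKM in iPSCs, against 0.688 and 1.21 FPKM at day 7 (5.66). Alpl, the alkaline phosphatase used to stain pluripotent colonies, had 87.4 and 113 FPKM in iPSCs, against 1.11 and 1.08 FPKM at day 7 (5.59). The rest, Zfp978, Pla2g1b, Zfp979, Trh, Rpl10l, Mymx and Rbmxl2, were above the minimum in iPSCs only. Zfp978 and Zfp979 sit in a cluster of near-identical zinc finger genes on chromosome 4, and Rpl10l is a retrocopy of a ribosomal gene, so their values are uncertain.

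The 12 largest falls were Col3a1, H19, Lum, Mgp, Penk, Ptn, Igf2, Col6a1, Aspn, Dcn, Col6a3 and Col1a1. Mgp, an inhibitor of calcification, had 0 and 0.215 FPKM in iPSCs, against 478 and 559 FPKM at day 7 (-8.88). Penk, the enkephalin precursor, had 0.239 and 0.353 FPKM in iPSCs, against 389 and 524 FPKM at day 7 (-8.45). Ptn, pleiotrophin, a heparin-binding growth factor, had 0.499 and 0.282 FPKM in iPSCs, against 345 and 362 FPKM at day 7 (-8.00).

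A set of 234 genes was below 1 FPKM in all 8 libraries other than iPSCs and at 5 FPKM or more in both iPSC libraries. These values chose the genes and are given as a description. The set holds 179 protein-coding genes and 9 genes on the X chromosome. Of all 14761 tested genes, 12789 were protein-coding and 535 lay on the X chromosome. In both CF1 iPSC libraries of the small-molecule route, 188 of the 234 were also at 5 FPKM or more. No matching share over all genes was taken, so that count does not set the genes apart. Its highest members were Mymx, a small fusion protein of muscle, with 89.9 and 107 FPKM in iPSCs, against 0.945 and 0.828 FPKM at day 7, and Trh, the thyrotropin-releasing hormone precursor, with 82.6 and 110 FPKM, against 0.497 and 0.435 FPKM. Conversely, 80 genes had at least 10 FPKM in both day 7 libraries and at least 4 times the level of every day 0 and iPSC library, with days 2 and 4 left out of the rule. Some of them were higher at day 4, such as Mmp3, with a mean of 228 FPKM there and 187 FPKM at day 7. Besides Car9, Mmp3 and Fabp4, this set, also chosen by these values, was led by Comp, a cartilage matrix protein, with 0.133 and 0.0208 FPKM in iPSCs, against 54.4 and 59.3 FPKM at day 7, Hp, haptoglobin, with 0.0431 and 0.0353 FPKM, against 34.3 and 36.9 FPKM, and Car3, a carbonic anhydrase of fat and muscle, with 0.124 and 0.175 FPKM, against 74.9 and 70.3 FPKM.

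The closest comparison in the series is the last step of the small-molecule route, from day 12 cells of CF1 MEFs to CF1 iPSCs in the same stem cell medium. The difference between the steps, the 4-factor change minus the CF1 change, was tested in 1 model over both tables and called 3796 of 16205 genes (23.4%), 1343 higher (8.29%) and 2453 lower (15.1%). Method, mouse stock, day and table differ together and cannot be told apart. The tables were normalised separately, so only changes within a table entered the test. Cdh1 was not called (0.53 ± 0.19), nor was Ncl (-0.07). The rise of Pou5f1 was smaller in the 4-factor step (-3.44 ± 0.31, limma adjusted p = 4.88e-07), where day 7 cells had 27.7 and 29.6 FPKM, against 1.79 and 0.644 FPKM in CF1 day 12 cells. The day 7 values of Pou5f1 may hold viral transcripts, which values per gene do not separate. The rise of Nanog was also smaller (-3.20), as was that of Ccnb1 (-5.10), which CF1 day 12 cells had at 1.33 and 1.11 FPKM. The fall of Car9 differed (-5.77 ± 0.17, limma adjusted p = 9.11e-12), as CF1 cells had 0.239 and 0.415 FPKM in iPSCs, against 0.219 and 0.370 FPKM at day 12. Smarca2 fell in both steps and by more in the 4-factor one (-1.5), with CF1 values of 1.17 and 1.22 FPKM in iPSCs, against 10.6 and 10.2 FPKM at day 12.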

How the data were processed

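RNA was measured as FPKM per gene in 10 libraries of the 4-factor experiment and 10 of the CF1 experiment. Per the submitters' processing notes the authors used fastp 0.20.1, HISAT2 2.2.1, StringTie 2.0 and mm10. The deposited FPKM values are normalised for transcript length and library total. Annotation and strand setting are not given in the sources used here. Low values did not fall on whole-read steps, so reads were not recovered and depth is unknown.

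Identifiers were matched to GENCODE M21 for symbols and positions (99.5% of 55401). limma 3.58.1 in R 4.3.3 was fitted to log2(FPKM + 1) over all libraries of a table, with 1 coefficient per group, for genes with at least 1 FPKM in 2 or more libraries. The pseudocount of 1 understates changes of low genes. A call needed a change of at least 1 and a p under 0.05 after Benjamini-Hochberg adjustment. The fit was tested on simulated data. The difference between routes was a contrast in a fit to both tables.

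The text names list members, and by rank the 12 largest rises and falls and the 6 largest differences in each direction. Genes ranked for iPSCs against day 7 had groups that did not overlap and a mean of 10 FPKM or more in the higher one. For the difference between routes, the changes between libraries did not overlap and at least 1 of the 4 group means was 10 FPKM or more. Predicted gene models were left out. Gene sets defined by their course name up to 6 genes. Members and lists were chosen with earlier results of these data known. The labels say nothing of shared origin between equally numbered libraries. Alternatives covered the pseudocount, filters, scaling, samples fitted, variance model, a replicate block and each library left out. The 10 libraries of the removal experiment were not analysed here, and a few genes are not reported here.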

Additional observations from a re-analysis of the deposited data

Results flagged for a closer look

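The change from the last intermediate to iPSCs differed between the 4-factor and the CF1 route, by limma's test of the difference itself, for 3796 of the genes tested. The CF1 route used a small-molecule medium on fibroblasts of another mouse stock, and method, stock, day and table cannot be told apart. The genes below are among those with the largest differences in each direction by the naming rule, and each difference is the 4-factor change minus the CF1 change on the log2(FPKM + 1) scale.

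The positive differences named here are in genes that were lower in CF1 iPSCs than in CF1 day 12 cells. Spon1, a secreted matrix protein, differed by 6.47, with 0.195 and 0.250 FPKM in 4-factor iPSCs, against 0.259 and 0.178 FPKM at day 7, and 0.192 and 0.129 FPKM in CF1 iPSCs, against 106 and 97.7 FPKM at day 12. S100g, a calcium-binding protein, differed by 6.45 and was listed at 0 in all iPSC libraries of both routes, with 0 and 0.721 FPKM at day 7 and 112 and 116 FPKM at day 12. Pltp, a phospholipid transfer protein, differed by 5.76, with 24.7 and 29.0 FPKM in 4-factor iPSCs, against 5.32 and 5.53 FPKM at day 7, and 31.0 and 27.8 FPKM in CF1 iPSCs, against 393 and 367 FPKM at day 12. In Pltp the routes moved in opposite directions. Gdf10, a ligand of the TGF-beta family, differed by 5.45, with 1.82 and 2.02 FPKM at 4-factor day 7, against 131 and 124 FPKM at CF1 day 12. Saa3, an acute phase protein, differed by 5.4, with 0.544 and 1.51 FPKM at 4-factor day 7, against 404 and 332 FPKM at CF1 day 12. Angpt4, an angiopoietin, differed by 5.24, with 0.353 and 0.407 FPKM at 4-factor day 7, against 65.8 and 62.7 FPKM at CF1 day 12.

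The negative differences named here are in genes that were lower in 4-factor iPSCs than in 4-factor day 7 cells. Mgp differed by -7.85, with 478 and 559 FPKM at 4-factor day 7, against 1.20 and 0.888 FPKM at CF1 day 12. Cxcl5, a neutrophil chemokine, differed by -7.60, with 0 and 0.0291 FPKM in 4-factor iPSCs, against 137 and 129 FPKM at day 7, and 2.74 and 2.29 FPKM in CF1 iPSCs, against 1.12 and 1.69 FPKM at day 12. Bgn, the matrix proteoglycan biglycan, differed by -6.63, with 21.7 and 19.5 FPKM in 4-factor iPSCs, against 1838 and 1862 FPKM at day 7, and 44.8 and 47.5 FPKM in CF1 iPSCs, against 40.3 and 39.2 FPKM at day 12. Tnn, tenascin N, differed by -6.62, with 118 and 126 FPKM at 4-factor day 7, against 0.421 and 0.339 FPKM at CF1 day 12. Hmga2, an architectural chromatin protein, differed by -5.87, with 5.31 and 4.02 FPKM in 4-factor iPSCs, against 55.4 and 54.0 FPKM at day 7, and 24.9 and 23.8 FPKM in CF1 iPSCs, against 3.60 and 2.98 FPKM at day 12. Hmga2 moved in opposite directions in the 2 routes.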

How the results depend on the processing

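The counts of called genes stayed within 1.5 times of those reported under each alternative run. Over settings with all libraries, called genes ran from 5120, with a minimum of 5 FPKM, to 7980, with a pseudocount of 0.1, and leaving out 1 library gave 5946 to 6647. On values rescaled to TPM 7565 genes were called. Centring on the median gave 3688 rises and 3067 falls. Without the 1119 genes that passed through iPSCs alone there were 2661 rises and 3221 falls. A replicate block, for libraries that share only a number, called 6746 genes and changed none of the calls of list members or named genes. Deviations of equally numbered iPSC and day 7 libraries correlated at 0.246 across genes, and other pairs of stages at -0.21 to 0.134. The difference between routes called 3629 to 5233 genes over settings, 3779 with the block, and 3643 to 4140 with 1 library left out. At 2 libraries a group, more gene calls were lost without iPSC replicate 2 than without any other library, among genes still tested. Genes that left the test are not counted there. Without iPSC replicate 1 or 2, 13827 and 13825 genes stayed in the test, against 14581 and 14587 without day 7 replicate 1 or 2. With a pseudocount of 0.1, imprinted genes gave 5 rises and 16 falls, and macrophage markers 2 rises and 4 falls. Neural markers that passed outside iPSCs gave 3 rises and 2 falls of 7. With a minimum of 5 FPKM fewer list members were tested: Hox genes gave 13 falls of 13, keratins 1 rise and 11 falls of 14, Wnt genes 5 rises and 5 falls of 12, primed genes 5 rises and 1 fall of 6, and germline and 2-cell genes 7 rises of 7 each. For 325 genes the filter rested on day 7 alone. The median of all tested genes was 0.09 as reported and 0.135 after centring.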

Other observations

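Among tested genes by annotated class, 41.2% of 97 small nucleolar RNA genes were called higher in iPSCs than at day 7 and 1.03% lower. Long intergenic RNA genes were called higher in 40% and lower in 20% of 240, and antisense RNA genes higher in 13% and lower in 29.0% of 169. Protein-coding genes were nearly balanced, with 23.7% of 12789 called higher and 23.3% lower. Processed pseudogenes, whose reads can come from their parent genes, were called higher in 23.1% and lower in 3.68% of 897. By chromosome, 29.3% of the tested genes of chromosome 4 were called higher, and on the Y chromosome 6 of 10 were. Shares by class include genes that passed the filter through iPSCs alone and are given as descriptions.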
